A study of Sorghum bicolor with 16 samples.

Results

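Roots of 2 sweet sorghum (Sorghum bicolor) strains were compared under salt stress: Roma, labelled salt-sensitive, and M-81E, labelled salt-tolerant. The comparison rests on 8 of the 16 samples of the study, an m6A immunoprecipitation (IP) and an input library from each of 2 replicates of Roma salt and 2 of M-81E salt. All plants were in the 3-leaf phase, and poly(A) RNA of the roots was fragmented and incubated with an antibody against N6-methyladenosine (m6A). Transcript levels came from 2 FPKM columns for Roma salt and 2 for M-81E salt (FPKM are fragment counts scaled to transcript length and library size), and m6A from 1 peak list per strain. Genes averaging 1 FPKM or more over the 8 columns of the table were compared, 16280 of 29033, and the 12753 others were left out. The lowest gene compared averaged 1.0 FPKM and the highest left out 0.99992 FPKM. The matching unstressed libraries, 2 columns for Roma control and 2 for M-81E control, entered the same fit and are given beside the values under salt. The sources used here give neither the dose nor the duration of salt, nor whether the FPKM columns hold IP or input fragments. A strain difference in these columns therefore cannot be told apart from a difference in m6A enrichment of the same transcript. The strains differ by genotype as a whole, so no difference is tied to 1 allele.

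Salt in the soil limits the uptake of water and loads the root with sodium. Roots meet it by pumping protons to drive sodium out of the cytosol or into the vacuole, by making compatible solutes such as proline and sugars, by changing water channels, and by lignin and suberin barriers around the vascular tissue. Abscisic acid carries much of the signal, and peroxidases, catalase and glutathione transferases deal with the reactive oxygen that follows. m6A is the most common internal mark of mRNA. It is set by a methyltransferase complex, removed by demethylases of the ALKBH family and read by YTH-domain proteins, and in plants it lies mostly near the stop codon and in the 3' UTR, where it bears on the stability of the transcript.

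The libraries separated first by strain. On the first principal component of the centred log2 levels, the 4 Roma libraries lay between 46.0 and 56.9 and the 4 M-81E libraries between -58.7 and -44.7. The replicates of Roma salt had a Spearman rho of 0.904 across genes, those of M-81E salt 0.864, those of Roma control 0.912 and those of M-81E control 0.807. M-81E control replicate 2 stood apart, at -97.1 on the second component, where the other 7 libraries lay between -7.93 and 55.7. Read totals were not used here. Depth relative to 1 library, as low FPKM values show it, was 0.801 to 1.32, and summed FPKM was 325987 to 377097. Genes annotated to photosynthesis, which would mark leaf tissue, had 51 tested members with summed FPKM of 903 and 944 in Roma salt and 709 and 744 in M-81E salt. Genes annotated to root development had 155 tested members. Nucleosome genes, which mark dividing cells, had 48 tested members with summed FPKM of 3172 and 2493 in Roma salt and 2154 and 2131 in M-81E salt, and suberin, cutin and wax genes, which include markers of the endodermis, had 29 with 467 and 461 in Roma salt and 524 and 525 in M-81E salt. None of these lists is exclusive to a cell type, and their part in the results was not tested.

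Under salt, 1084 of 16280 genes (6.66%) differed between the strains (limma, adjusted p under 0.05): 513 (3.15%) were higher in Roma salt and 571 (3.51%) lower. Their median absolute log2 difference was 1.61, the smallest was 0.736, and 359 genes differed by a log2 of at least 2. At an unadjusted p under 0.05 there were 4016 genes. The libraries of the strains did not overlap in any of the 1084 genes, but they did not overlap in 67.6% of all tested genes either. Each library was centred on the median gene, since the tested genes were shifted towards Roma by a median log2 of 0.29. Without that centring, 1370 genes passed (8.42%), 977 higher and 393 lower, which turns 47.3% higher into 71.3%. The p-values measure the spread between 2 samples a group, which the labels call biological replicates, pooled over the 4 groups, controls included. Its median over genes (SD of log2 levels) was 0.128 in Roma salt, 0.188 in M-81E salt, 0.109 in Roma control and 0.358 in M-81E control. Leaving out a library also takes the spread of its group out of this pool. In bulk roots fewer cells of a type and less RNA per cell cannot be told apart. The count depended on single libraries: it was 220 and 196 when replicate 1 or 2 of Roma salt was left out, 324 and 486 for M-81E salt, 480 and 481 for Roma control, and 3012 and 2990 for M-81E control. Of the 1084 genes, 146 passed in all 8 of these fits, and where a gene named below did not, the fits its call stood in are given as a number of 8.

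**Figure D1:**
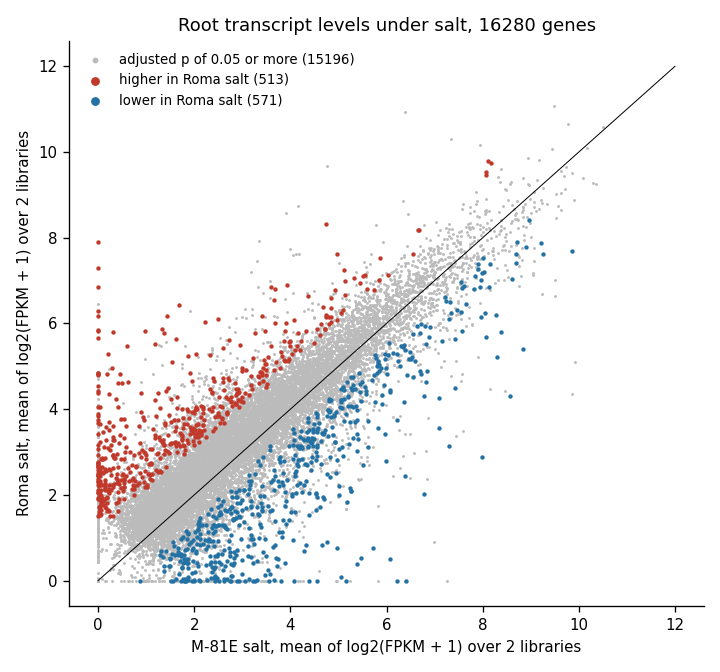
Mean log2(FPKM + 1) over 2 libraries in Roma salt (vertical axis) against M-81E salt (horizontal axis), before centring, for 16280 genes; each point is a gene and the line marks equal levels. The 513 genes higher in Roma salt (red) and the 571 lower (blue) lie on both sides of the grey cloud, and points on an axis are genes listed at 0 in both libraries of a strain.

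The 12 largest rises in Roma salt were taken among genes with an annotated activity (a molecular function beyond binding) that averaged 5 FPKM or more under salt and had a value above 0 in all 4 salt libraries. Genes without such an annotation were left out of this choice, also where they differed by more, and some are given further on. The 12 were in enzymes, kinases, a transporter and a transcription factor. SORBI_3005G069900, a serine/threonine protein kinase, had 52.3 and 57.3 FPKM in Roma salt and 0.112 and 0.374 FPKM in M-81E salt (log2 difference 5.21 ± 0.19 SE, limma adjusted p = 0.000606). The strains were also far apart without salt, with 44.2 and 45.8 FPKM in Roma control and 0.425 and 0.25 in M-81E control. SORBI_3003G292400, described as a malic enzyme precursor (the enzyme that decarboxylates malate to pyruvate), had 48.6 and 62.9 FPKM in Roma salt and 0.797 and 1.16 FPKM in M-81E salt (4.56 ± 0.26, adjusted p = 0.00125). Here the unstressed libraries were all low, with 1.72 and 0.85 FPKM in Roma control and 0.13 and 0.136 in M-81E control, so the level was high in Roma salt and in no other group. SORBI_3004G044900, a glutathione transferase, which couples glutathione to reactive compounds, had 80.2 and 90.6 FPKM in Roma salt and 2.17 and 2.29 FPKM in M-81E salt (4.46 ± 0.18, adjusted p = 0.000613). SORBI_3009G191700, a GTPase of the signal recognition particle, which steers new proteins to the endoplasmic reticulum, had 25.7 and 29.2 FPKM in Roma salt and 0.381 and 0.352 FPKM in M-81E salt. SORBI_3006G211400, an ent-kaurene synthase of the route to gibberellins and related diterpenoids, had 20.2 and 27.6 FPKM in Roma salt and 0.556 and 0.283 FPKM in M-81E salt. For these 3 genes both Roma groups were high and both M-81E groups low. SORBI_3001G373600, a sugar transporter, had 34.4 and 39.8 FPKM in Roma salt and 3.16 and 2.21 FPKM in M-81E salt (3.10 ± 0.22, adjusted p = 0.00227), with 7.27 and 6.76 in Roma control and 0.0354 and 0.178 in M-81E control. The Roma libraries were above the M-81E libraries in both conditions. The other 6, SORBI_3007G067608, SORBI_3005G070000, SORBI_3008G007100, SORBI_3008G022100, SORBI_3004G138400 and SORBI_3010G170300, were an oxalate decarboxylase described below, 2 more kinases, a nucleoside-diphosphatase, a transcription factor and a beta-glucosidase, with log2 differences of 2.84 to 4.40.

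The 12 largest falls among genes chosen in the same way were in 3 kinases, a transcription factor, a symporter, a receptor channel, a helicase, 2 dirigent-type genes and 3 hydrolases, of which 1 cuts pectin. SORBI_3007G047400, a sequence-specific transcription factor that the annotation ties to salt, abscisic acid, auxin, ethylene and jasmonate responses, had 0.607 and 0.802 FPKM in Roma salt and 52.2 and 51.3 FPKM in M-81E salt (log2 difference -5.24 ± 0.20, limma adjusted p = 0.000613). Roma control had 0.349 and 0.353 FPKM and M-81E control 42.0 and 62.5, so the gene was low in all 4 Roma libraries and high in all 4 M-81E libraries. SORBI_3002G338500, a sugar and proton symporter, had 7.00 and 5.73 FPKM in Roma salt and 864 and 72.9 FPKM in M-81E salt (-5.39 ± 1.13, adjusted p = 0.0482). Its M-81E salt replicates were far apart, and its call was lost without M-81E salt replicate 1 or any Roma library (3 of 8). SORBI_3004G013200, an ionotropic glutamate receptor (a ligand-gated cation channel), had 0.102 and 0.129 FPKM in Roma salt and 12.7 and 9.43 FPKM in M-81E salt (-3.70 ± 0.29, adjusted p = 0.00318). SORBI_3003G050100, a polygalacturonase, which cuts the pectin of the cell wall, had 0.247 and 0.274 FPKM in Roma salt and 12.9 and 11.4 FPKM in M-81E salt. SORBI_3010G165700, a DNA helicase, had 0.0123 and 0.0211 FPKM in Roma salt and 11.97 and 11.2 FPKM in M-81E salt. In these last 3 genes every Roma library, control included, had at most 0.308 FPKM and every M-81E library at least 9.43 FPKM.

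Among the falls, 2 genes were annotated as guiding stereospecific synthesis, the activity of dirigent proteins, which direct the coupling of monolignols into lignans. SORBI_3002G100832 had 0.849 and 0.558 FPKM in Roma salt and 22.8 and 39.99 FPKM in M-81E salt (log2 difference -4.48 ± 0.26, limma adjusted p = 0.00132). SORBI_3005G206000 had 0.433 and 0.384 FPKM in Roma salt and 12.9 and 11.9 FPKM in M-81E salt (-3.53 ± 0.32, adjusted p = 0.00442). The whole annotated family, looked at after these values were seen, had 22 tested members, of which 4 were lower in Roma salt, none was higher and 18 did not pass (18.2% called, beside 6.66% of all genes). The median of the 22 was -0.231, against 0.00544 for all tested genes. In the control libraries 6 of the 22 were lower in Roma control than in M-81E control and none higher, where 10.6% of all genes were called.

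**Figure D2:**
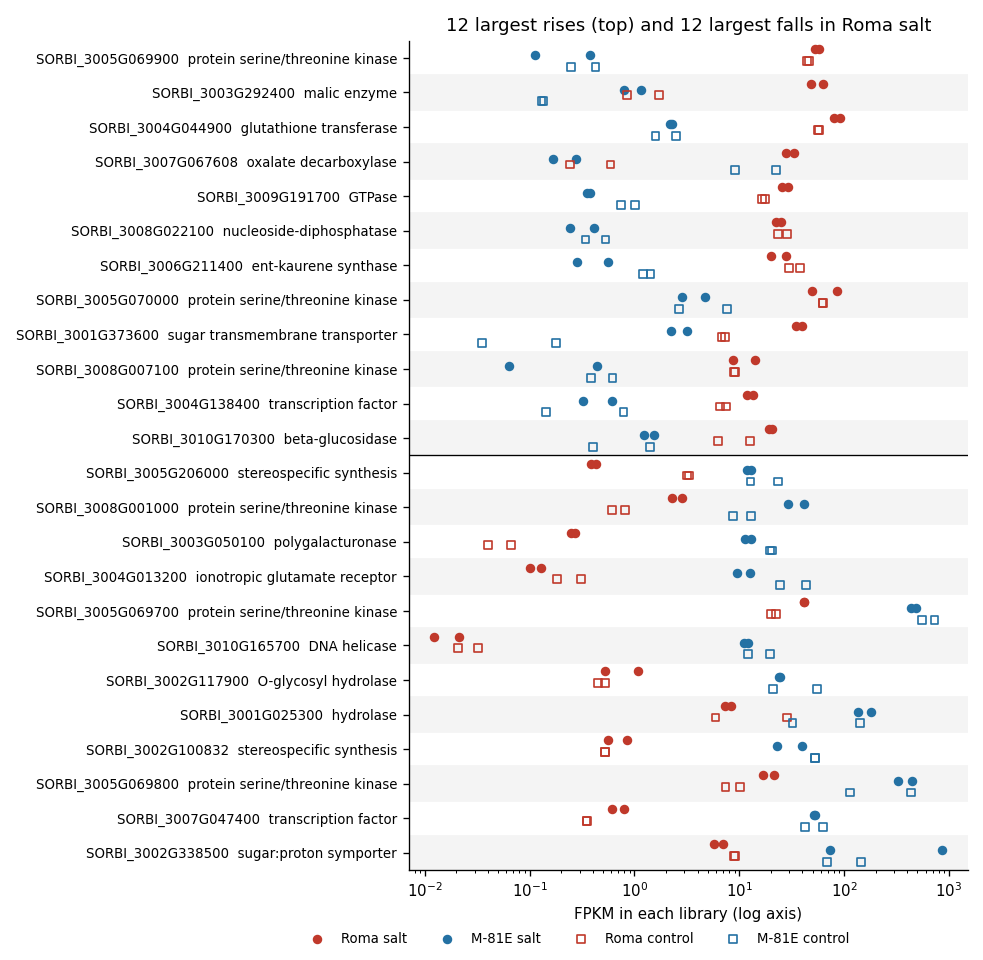
FPKM (log axis) of the 12 largest rises (upper block) and 12 largest falls (lower block) among genes with an annotated activity, in every library: Roma salt and M-81E salt as filled circles, Roma control and M-81E control as open squares. The malic enzyme SORBI_3003G292400 is high in Roma salt alone, and the oxalate decarboxylase SORBI_3007G067608 is high in Roma salt and in M-81E control.

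A run of kinase genes with neighbouring locus numbers on chromosome 5 differed in both directions. SORBI_3005G069700 had 41.5 and 41.3 FPKM in Roma salt and 432 and 489 FPKM in M-81E salt (log2 difference -3.72 ± 0.17, limma adjusted p = 0.000951). SORBI_3005G069800 had 16.7 and 21.2 FPKM in Roma salt and 439 and 325.8 FPKM in M-81E salt (-4.54 ± 0.65, adjusted p = 0.017). SORBI_3005G070200 was the most abundant tested kinase under salt, with 221 and 218 FPKM in Roma salt and 478 and 482 FPKM in M-81E salt (-1.41 ± 0.15, adjusted p = 0.00785). Against these stood the kinase SORBI_3005G069900 above and SORBI_3005G070000, which had 85.2 and 49.0 FPKM in Roma salt and 4.67 and 2.85 FPKM in M-81E salt (3.53 ± 0.46, adjusted p = 0.0137). The calls of SORBI_3005G069800 and SORBI_3005G070000 were lost without any 1 of the 4 salt libraries (4 of 8), and that of SORBI_3005G070200 without either Roma salt library (6 of 8). Of the 7 tested kinases of this run, which was looked at after the values were seen, 2 were higher in Roma salt, 4 were lower and 1 did not pass (85.7% called, beside 6.66% of all genes). Whether reads are split between similar copies in either strain was not tested, and the values of such genes are uncertain for that reason.

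Some genes were listed at 0 in both salt libraries of a strain: 201 tested genes in Roma salt, of which 83 had a mean of at least 5 FPKM in M-81E salt, and 254 in M-81E salt, of which 92 had a mean of at least 5 FPKM in Roma salt. Of the 83, 47 were also at 0 in both Roma control libraries, and of the 92, 36 were at 0 in both M-81E control libraries. SORBI_3002G225700, a transcription factor annotated to ethylene and defence, was listed at 0 in all 4 Roma libraries and had 37.0 and 32.4 FPKM in M-81E salt and 51.7 and 34.2 FPKM in M-81E control (limma adjusted p = 0.00109 under salt). The nucleosome genes SORBI_3003G067300 and SORBI_3003G200501 were listed at 0 in all 4 M-81E libraries, and had 86.4 and 59.2 FPKM, and 55.8 and 43.4 FPKM, in Roma salt. SORBI_3005G109000, a monooxygenase annotated to wounding, had 62.6 and 48.8 FPKM in Roma salt and was listed at 0 in the other 6 libraries (adjusted p = 0.000606). Some entries at 0 did not repeat between replicates. SORBI_3001G538866, a kinase inhibitor, had 471 and 0 FPKM in Roma salt and 0 and 0 in M-81E salt, and SORBI_3006G221200, a ribosomal protein gene, had 0 and 0 FPKM in Roma salt and 0 and 110 in M-81E salt. The strains overlap in both genes, and neither passed. Of the 1084 genes called under salt, 27 were listed at 0 in both Roma salt libraries and 45 in both of M-81E salt.

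Without salt, 1722 genes (10.6%) differed between Roma control and M-81E control, 661 higher and 1061 lower in Roma control. Of the 1084 genes called under salt, 698 were called in the same direction without it, which is 64.4% of the salt calls and 40.5% of the control calls, 10 were called in the opposite direction, and 1015 had the same sign. Another 376 were called under salt and not without it. Passing in 1 condition only does not show a difference between conditions: the test of that difference, the interaction of strain and salt, passed for 27 genes (0.166%; 1490 at an unadjusted p under 0.05), 19 above 0 and 8 below. Of these, 20 were also called under salt, and 14 of the 376 were among them. The count of 27 was 6 and 16 when replicate 1 or 2 of Roma control was left out, 989 and 92 for M-81E control, 27 and 18 for Roma salt, and 26 and 83 for M-81E salt.

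The interaction genes included oxalate decarboxylase genes, a label the annotation gives to cupin-type cell wall proteins. SORBI_3004G148100 had 40.1 and 58.1 FPKM in Roma salt and 5.81 and 5.41 FPKM in M-81E salt (log2 difference 2.62 ± 0.36, limma adjusted p = 0.0159), but 1.12 and 0.929 FPKM in Roma control and 167 and 90.6 FPKM in M-81E control. SORBI_3007G067608 had 27.9 and 33.0 FPKM in Roma salt and 0.275 and 0.166 FPKM in M-81E salt (4.40 ± 0.44, adjusted p = 0.00615), with 0.592 and 0.243 FPKM in Roma control and 22.3 and 9.07 FPKM in M-81E control. In both genes the strain that was high changed with the treatment, with an interaction of 8.84 (adjusted p = 0.0074) and 8.13 (adjusted p = 0.0217). The interaction of SORBI_3004G148100 was lost without Roma control replicate 1 (7 of 8), and that of SORBI_3007G067608 without any Roma library or M-81E salt replicate 1 (3 of 8). Another member, SORBI_3004G147900, had 62.8 and 64.4 FPKM in Roma salt and 15.1 and 13.0 FPKM in M-81E salt (1.82 ± 0.18, adjusted p = 0.006), while the controls had 18.4 and 16.5 FPKM in Roma control and 17.0 and 17.1 FPKM in M-81E control. Its 2 Roma salt libraries were the only high ones of 8, although its interaction missed the threshold (2.08, adjusted p = 0.0788). Under salt the call of SORBI_3004G148100 was lost without any 1 of the 4 salt libraries (4 of 8), that of SORBI_3007G067608 without Roma salt replicate 2 (7 of 8), and that of SORBI_3004G147900 stood in 6 of 8. Of 23 tested members, counted after these values were seen, 4 were higher in Roma salt, none was lower and 19 did not pass (17.4% called, beside 6.66% of all genes). In the controls 1 was higher and 5 were lower in Roma control, where 10.6% of all genes were called. SORBI_3009G030100, which has no annotated activity and was picked after its values were seen, had 260 and 218 FPKM in Roma salt, 0 and 0 in M-81E salt, 0 and 0 in Roma control, and 1301 and 804 in M-81E control.

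Other interaction genes were high or low in a single group. The malic enzyme SORBI_3003G292400 had an interaction of 3.86 (limma adjusted p = 0.0315), which was lost without any Roma library or M-81E salt library (2 of 8). Of the 9 tested genes with malic enzyme activity, counted after the values were seen, 2 were higher in Roma salt and 7 did not pass (22.2% called, beside 6.66%). SORBI_3007G056500, a ubiquitin protein ligase, which marks proteins for degradation, had 13.3 and 15.5 FPKM in Roma salt and 0.827 and 0.906 FPKM in M-81E salt (log2 difference 2.76 ± 0.19, adjusted p = 0.002), against 14.5 and 14.7 FPKM in Roma control and 14.8 and 20.8 in M-81E control. Only M-81E salt was low among its 8 libraries, and the interaction was 3.30 (adjusted p = 0.0238; 3 of 8). SORBI_3009G232700, an mRNA splicing gene, had 9.89 and 10.4 FPKM in Roma salt and 0.0461 and 0.108 FPKM in M-81E salt, and no control library was above 0.182 FPKM (interaction 3.49, adjusted p = 0.0246; 3 of 8). SORBI_3008G013800, a kinase, had 17.1 and 14.4 FPKM in Roma salt and was listed at 0 in the other 6 libraries (interaction adjusted p = 0.0132; 6 of 8).

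Gene groups were then read by the words of the annotated functions. In glycolysis and the citric acid cycle, 9 of 90 tested genes were higher in Roma salt, 1 was lower and 80 did not pass (11.1% called, against 6.66% of all genes), and the median log2 difference was 0.19 against 0.00544 for all genes. The controls were alike: 10 of the 90 were higher and 3 lower in Roma control, with a median of 0.21, where 10.6% of all genes were called. SORBI_3002G316900, an aconitase, which turns citrate into isocitrate, had 18.7 and 24.5 FPKM in Roma salt and 1.79 and 1.65 FPKM in M-81E salt (2.76 ± 0.22, limma adjusted p = 0.00318), and the 4 control libraries had 0.263 to 1.00 FPKM. SORBI_3010G101300, a pyruvate dehydrogenase subunit gene, which feeds pyruvate into the cycle, had 5.12 and 7.45 FPKM in Roma salt and 0.536 and 0.38 FPKM in M-81E salt (2.02 ± 0.27, adjusted p = 0.0147). SORBI_3001G384100, a phosphoglycerate mutase of glycolysis, had 31.8 and 39.2 FPKM in Roma salt and 8.97 and 7.65 FPKM in M-81E salt (1.69 ± 0.24, adjusted p = 0.016). In all 3 genes the 2 Roma salt libraries were the highest of the 8, and none passed in the controls; their interactions were 2.52, 1.77 and 1.51 and missed the threshold (adjusted p = 0.0788, 0.285 and 0.289). The group's most abundant member, the aldolase SORBI_3003G393900, had 1240 and 1280 FPKM in Roma salt and 29.9 and 861 FPKM in M-81E salt, a wide gap between replicates, and did not pass. SORBI_3010G262500, a glyceraldehyde-3-phosphate dehydrogenase, had 896 and 884 FPKM in Roma salt and 247 and 307 FPKM in M-81E salt (1.41 ± 0.22, adjusted p = 0.0209), with a log2 difference of 1.18 in the controls. The 9 also held SORBI_3010G262433 and SORBI_3010G262466, of neighbouring locus numbers, with log2 differences under salt of 1.18 and 1.30. Whether reads are split between similar copies was not tested. The call of the aconitase stood in all 8 fits, that of the pyruvate dehydrogenase in 4, that of the mutase in 3 and that of the glyceraldehyde-3-phosphate dehydrogenase in 2.

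The list of proton pumps, which energise the removal of sodium, had 55 tested members, ATP synthase subunits and soluble pyrophosphatases included. Of them 4 were higher in Roma salt, none was lower and 51 did not pass (7.27%; median log2 difference 0.14). Without salt 3 were higher and none lower in Roma control, with a median of 0.21, where 10.6% of all genes were called. SORBI_3001G132400, an H+-exporting ATPase of the plasma membrane, had 94.9 and 101 FPKM in Roma salt and 17.2 and 22.3 FPKM in M-81E salt (1.99 ± 0.18, limma adjusted p = 0.00479). Roma control had 7.95 and 8.42 FPKM and M-81E control 5.30 and 7.29, so the Roma salt libraries were the highest of the 8, and the interaction of 1.93 missed the threshold (adjusted p = 0.0937). SORBI_3003G367650, described as a soluble inorganic pyrophosphatase and so not a membrane pump, had 10.4 and 10.2 FPKM in Roma salt and 1.98 and 2.04 FPKM in M-81E salt (1.63 ± 0.17, adjusted p = 0.00667), and SORBI_3007G159700, annotated to the mitochondrial ATP synthase, had 121 and 122 FPKM in Roma salt and 46.4 and 39.2 FPKM in M-81E salt (1.204 ± 0.19, adjusted p = 0.0215). The most abundant pump, SORBI_3006G247100, had 440 and 504 FPKM in Roma salt and 550 and 639 FPKM in M-81E salt and did not pass (adjusted p = 0.141). The 3 calls stood in 7, 6 and 2 of the 8 fits; those of the first 2 were lost only without a Roma salt library.

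For sodium itself, none of 13 tested genes annotated to sodium transport passed under salt (limma; 1 at an unadjusted p under 0.05; counted after their values were seen), with log2 differences of -0.395 to 1.06. In the wider list of sodium and potassium transport 1 of 66 was higher in Roma salt and none lower (1.52%). That gene, SORBI_3004G260500, is annotated as a nitrate transporter as well, and had 15.5 and 14.2 FPKM in Roma salt and 3.34 and 2.80 FPKM in M-81E salt (1.68 ± 0.25, limma adjusted p = 0.02; 2 of 8). Of 325 tested genes annotated to salt or osmotic stress, 16 were higher and 12 lower in Roma salt (8.62%, median -0.04). SORBI_3001G086000, a cell wall and plasma membrane gene of this list, had 0.214 and 0.628 FPKM in Roma salt and 72.5 and 61.3 FPKM in M-81E salt (-5.87 ± 0.22, adjusted p = 0.000606), with 106 and 109 FPKM in M-81E control. Its most abundant member, the UTP-glucose-1-phosphate uridylyltransferase SORBI_3002G291200, which makes UDP-glucose, had 883 and 917 FPKM in Roma salt and 474 and 705 FPKM in M-81E salt and did not pass.

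Of 340 tested genes annotated to abscisic acid, 5 were higher in Roma salt and 16 lower (6.18%, median -0.12). Without centring the balance turned, with 15 higher and 11 lower. SORBI_3006G124000, annotated as a transcription cofactor and histone acetyltransferase, had 3.10 and 2.63 FPKM in Roma salt and 24.7 and 24.7 FPKM in M-81E salt (-3.02 ± 0.48, limma adjusted p = 0.0219; 4 of 8). The enolase SORBI_3010G027000, the most abundant member, was among the 5, with 661 and 743 FPKM in Roma salt and 237 and 306 FPKM in M-81E salt (1.10 ± 0.18, adjusted p = 0.0264; 2 of 8). Of 179 genes annotated to water deprivation, 8 were higher and 4 lower (6.70%, median -0.14). SORBI_3004G169200, a ubiquitin ligase, had 28.3 and 24.96 FPKM in Roma salt and 0 and 0 FPKM in M-81E salt, while M-81E control had 22.8 and 10.5 FPKM. Its interaction of strain and salt did not pass.

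Of 24 tested aquaporin genes 2 were lower in Roma salt, none was higher and 22 did not pass (8.33%), and the median log2 difference was -0.67, with a range of -0.964 to -0.471 over the 8 fits that left out a library. In the controls their median was 0.72, but it rested on the library that stood apart: without M-81E control replicate 2 it was -0.137, and without replicate 1 it was 1.22. Summed aquaporin FPKM was 1490 and 1213 in Roma control and 994.2 and 407.5 in M-81E control. The median under salt was the lowest of the groups with at least 10 tested members, but under quantile scaling the medians of lignin synthesis and of suberin, cutin and wax lay lower, at -0.516 and -0.589 against -0.506 for water channels, and the ranges of the 3 groups over the fits that left out a library overlap. SORBI_3006G150100 had 19.7 and 18.8 FPKM in Roma salt and 57.9 and 60.5 FPKM in M-81E salt (-1.86 ± 0.29, limma adjusted p = 0.0207), and SORBI_3003G026400 had 5.54 and 5.62 FPKM in Roma salt and 17.9 and 15.5 FPKM in M-81E salt (-1.71 ± 0.30, adjusted p = 0.0285). Both calls stood in 2 of 8 fits and were lost without any Roma library or M-81E salt library. The most abundant aquaporin, SORBI_3004G288700, had 315 and 295 FPKM in Roma salt and 254 and 258 FPKM in M-81E salt, a centred log2 difference of -0.03 that did not pass.

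Lignin synthesis had 4 genes higher and 7 lower in Roma salt among 84 tested (13.1%), and 60 of the 84 lay below 0, with a median of -0.55 under salt. The control median was 0.02, and leaving out M-81E control replicate 2 turned it to -0.319, leaving out replicate 1 to 0.65. Summed FPKM of the group was 3983 and 3387 in Roma control and 4830 and 2152 in M-81E control. The list also holds 6 tested genes annotated to lignin breakdown. Their median under salt was -1.33, with a range of -3.17 to -0.142, and none passed. Cinnamyl-alcohol dehydrogenases, which make the monolignols that lignin is built from, had 13 tested members, of which 1 was higher in Roma salt and 3 were lower. That is 30.8% called, beside 6.66% of all genes, in a family counted after its values were seen. SORBI_3010G072100 had 1.32 and 1.94 FPKM in Roma salt and 10.7 and 13.0 FPKM in M-81E salt (-2.58 ± 0.25, limma adjusted p = 0.00557). SORBI_3010G071900 had 5.41 and 5.35 FPKM in Roma salt and 15.4 and 18.4 FPKM in M-81E salt (-1.77 ± 0.27, adjusted p = 0.0199; 2 of 8), and SORBI_3010G072000, of the locus number between them, had 9.19 and 11.46 FPKM in Roma salt and 15.4 and 17.9 FPKM in M-81E salt and missed the threshold (adjusted p = 0.0731). All 3 were also lower in Roma control, where each passed. The cinnamoyl-CoA reductase SORBI_3003G116800, of the step before, had 5.13 and 12.5 FPKM in Roma salt and 32.6 and 39.9 FPKM in M-81E salt (-2.31 ± 0.37, adjusted p = 0.022; 3 of 8). The most abundant member, the caffeoyl-CoA O-methyltransferase SORBI_3010G052200, had 711 and 518 FPKM in Roma salt and 1390 and 1240 FPKM in M-81E salt, which do not overlap, but its control replicates of M-81E were 1170 and 182 FPKM and it did not pass (adjusted p = 0.366).

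Several other groups of secondary and wall metabolism had medians below 0 as well, and most of their genes did not pass. Peroxidases, which include the class III enzymes of wall cross-linking and here also ascorbate and glutathione peroxidases, had 4 genes higher and 5 lower among 130 tested (6.92%, median -0.48). Their control median was 0.10, or -0.373 with M-81E control replicate 2 left out and 0.728 with replicate 1 left out, with summed FPKM of 4200 and 4174 in Roma control and 5201 and 2337 in M-81E control. SORBI_3002G010700 had 4.35 and 2.74 FPKM in Roma salt and 37.1 and 36.4 FPKM in M-81E salt (-3.36 ± 0.36, limma adjusted p = 0.00771; 6 of 8), and SORBI_3009G055300 had 13.4 and 21.6 FPKM in Roma salt and 92.8 and 70.9 FPKM in M-81E salt (-2.47 ± 0.45, adjusted p = 0.0317; 2 of 8). Suberin, cutin and wax had 1 higher and 1 lower of 29 (median -0.55), flavonoid and anthocyanin synthesis 3 higher and 3 lower of 119 (-0.42), and cytochrome P450 and other monooxygenases 2 higher and 6 lower of 89 (-0.38). The glycerol-3-phosphate acyltransferase SORBI_3003G360700, an enzyme of the suberin and cutin route, was higher, with 12.6 and 13.0 FPKM in Roma salt and 2.83 and 2.54 FPKM in M-81E salt (1.62 ± 0.26, adjusted p = 0.0237; 2 of 8). The medians of these 4 groups kept their sign in all 8 fits that left out a library. The single catalase or superoxide dismutase called among 12, the catalase SORBI_3004G011566, was higher, with 48.1 and 44.4 FPKM in Roma salt and 15.8 and 13.7 FPKM in M-81E salt (1.30 ± 0.24, adjusted p = 0.0353; 2 of 8). Glutathione transferases had 4 higher and 1 lower of 79 (6.33%, median -0.24) and UDP-glycosyltransferases 4 and 3 of 89 (-0.21). Cellulose synthesis had 1 and 1 of 38, with a median above 0 (0.06), and cell wall loosening and xyloglucan 1 and 0 of 70 (-0.02).

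**Figure D3:**
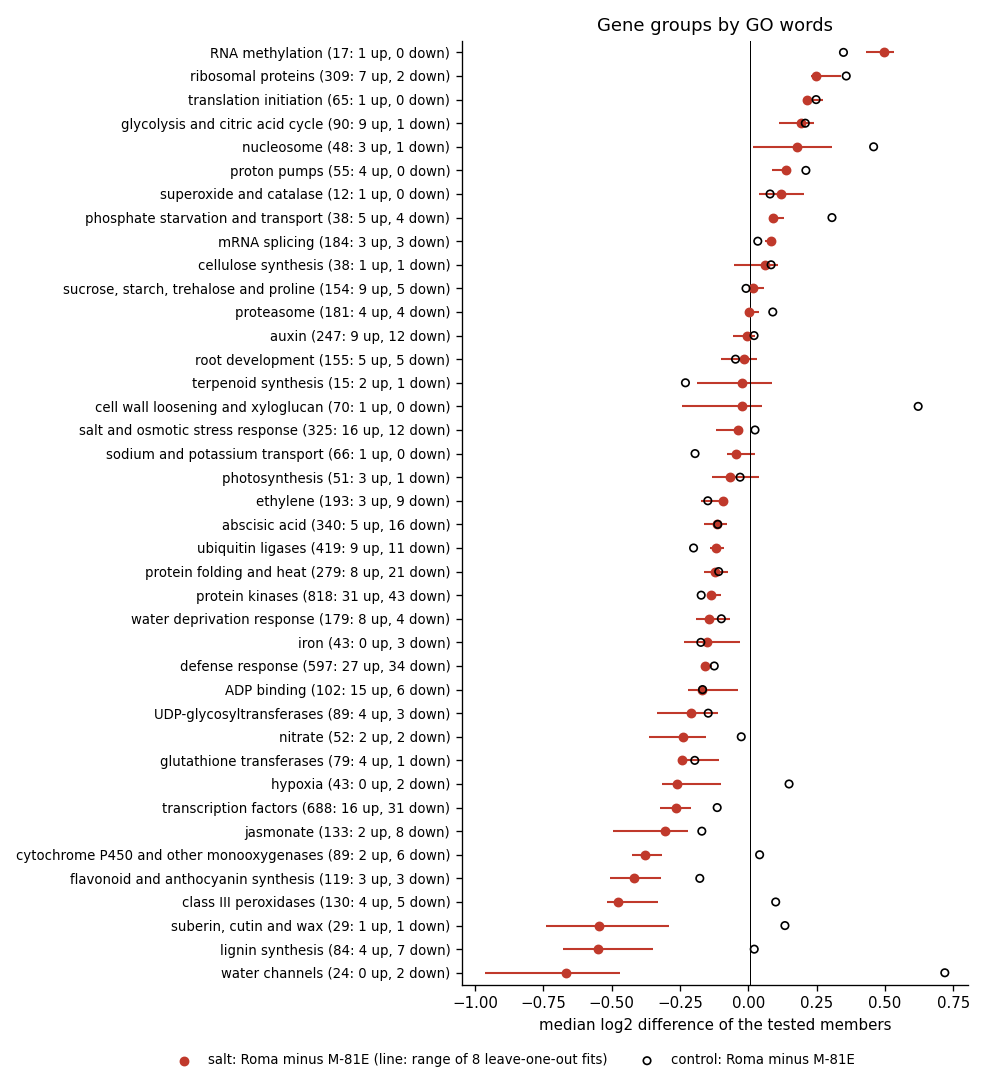
Median log2 difference of the tested members of each gene group with at least 10 of them, Roma salt minus M-81E salt (red points, with the range over the 8 leave-one-out fits) and Roma control minus M-81E control (open circles); the vertical line is the median of all tested genes under salt, and the labels give the members tested and called under salt. RNA methylation lies highest at 0.49 and water channels lowest at -0.67; the control circle of water channels, at 0.72, lies at -0.137 without M-81E control replicate 2.

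Of 38 tested phosphate genes 5 were higher in Roma salt and 4 lower (23.7%, beside 6.66% of all genes), with a median of 0.09. Without salt 8 were higher and 1 lower in Roma control, with a median of 0.31, where 10.6% of all genes were called. SORBI_3008G113000, an acid phosphatase, which frees phosphate from organic compounds, had 11.7 and 13.1 FPKM in Roma salt and 77.0 and 69.4 FPKM in M-81E salt (-2.75 ± 0.36, limma adjusted p = 0.0134; 4 of 8). Roma control had 23.9 and 26.6 FPKM and M-81E control 13.9 and 6.65, so the M-81E salt libraries were the highest of the 8, but the interaction did not pass. SORBI_3004G282900, a phosphate transport gene of the vacuole membrane, was higher, with 42.0 and 42.4 FPKM in Roma salt and 4.44 and 5.75 FPKM in M-81E salt (2.55 ± 0.17, adjusted p = 0.00178). Nitrate genes had 2 higher and 2 lower of 52 (7.69%), and iron genes 0 higher and 3 lower of 43 (6.98%). The nitrate reductase SORBI_3004G312500 had 17.6 and 12.6 FPKM in Roma salt and 3.53 and 1.47 FPKM in M-81E salt (1.97 ± 0.39, adjusted p = 0.0423; 2 of 8), and the iron transporter SORBI_3002G095400 had 7.86 and 10.4 FPKM in Roma salt and 36.7 and 40.1 FPKM in M-81E salt (-2.25 ± 0.33, adjusted p = 0.0174; 2 of 8).

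Genes of sucrose, starch, trehalose and proline had 9 higher and 5 lower in Roma salt of 154 (9.09%, median 0.02). SORBI_3001G293800, a beta-amylase, which releases maltose from starch, had 4.08 and 2.52 FPKM in Roma salt and 47.8 and 29.0 FPKM in M-81E salt (-3.46 ± 0.41, limma adjusted p = 0.0102; 5 of 8). Its 4 control libraries had 31.4 to 68.4 FPKM, so Roma salt was the only low group, but the interaction missed the threshold (-3.70, adjusted p = 0.128). The starch synthase SORBI_3010G047700 had 27.1 and 28.0 FPKM in Roma salt and 2.26 and 3.35 FPKM in M-81E salt (2.64 ± 0.20, adjusted p = 0.00277). SORBI_3002G075800, a galactinol-sucrose galactosyltransferase, an activity of raffinose metabolism, had 22.4 and 26.1 FPKM in Roma salt and 5.11 and 3.62 FPKM in M-81E salt (1.96 ± 0.27, adjusted p = 0.0152; 5 of 8).

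Defence genes showed calls in both directions. The words ADP binding, meant for nucleotide-binding resistance proteins, took in 102 tested genes, of which 15 were higher and 6 lower in Roma salt (20.6%), but 28 of them carried the term NADP binding instead, among them 3 glyceraldehyde-3-phosphate dehydrogenases of the 15. The 74 genes with the term ADP binding itself were split off after the values were seen. Of them 10 were higher and 4 lower (18.9%, beside 6.66% of all genes), although their median was -0.227. In the controls 11 of the 74 were higher and 6 lower in Roma control, where 10.6% of all genes were called. SORBI_3005G019400 had 11.9 and 11.99 FPKM in Roma salt and 0.266 and 0.0697 FPKM in M-81E salt (3.20 ± 0.20, limma adjusted p = 0.00156). SORBI_3005G075600 had 0 and 0.115 FPKM in Roma salt and 29.9 and 34.2 FPKM in M-81E salt (-5.25 ± 0.32, adjusted p = 0.00151), while Roma control had 13.6 and 17.4 FPKM and M-81E control 21.0 and 44.0; it was low in Roma salt alone, and the interaction missed the threshold (-4.02, adjusted p = 0.0606). In the wider list of defence response 27 were higher and 34 lower of 597 (10.2%, beside 6.66% of all genes). Without centring the balance of this list turned, with 40 higher and 21 lower. The split of reads between similar copies was not tested.

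Among regulators, transcription factors had 16 higher and 31 lower in Roma salt of 688 (6.83%, median -0.26, control median -0.11). That control median depended on single M-81E libraries: dropping control replicate 2 gave -0.279, and dropping replicate 1 gave 0.0778. SORBI_3002G418500, a transcription factor also annotated to root development, had 2.31 and 3.19 FPKM in Roma salt and 24.9 and 25.003 FPKM in M-81E salt (-3.08 ± 0.36, limma adjusted p = 0.00975; 5 of 8), and the ethylene-annotated factor SORBI_3004G219800 had 103 and 84.4 FPKM in Roma salt and 9.57 and 13.9 FPKM in M-81E salt (2.63 ± 0.20, adjusted p = 0.00302). Jasmonate genes had 2 higher and 8 lower of 133 (7.52%, median -0.30), ethylene genes 3 and 9 of 193 (6.22%), auxin genes 9 and 12 of 247 (8.50%) and protein kinases 31 and 43 of 818 (9.05%). Without centring the counts were 3 and 7 for jasmonate, 6 and 7 for ethylene, 24 and 10 for auxin and 46 and 21 for kinases. Of 155 root development genes 5 were higher and 5 lower (6.45%). SORBI_3005G128800, a gene of that list tied to the regulation of cell growth, had 0.321 and 0.581 FPKM in Roma salt and 33.1 and 56.7 FPKM in M-81E salt (-5.22 ± 0.31, adjusted p = 0.0014), and its call stood in all 8 fits that left out a library. The terpenoid list had 2 higher and 1 lower of 15 tested, with the sesquiterpene synthase SORBI_3007G055500 at 5.66 and 6.82 FPKM in Roma salt and 0.499 and 0.0512 FPKM in M-81E salt (2.24 ± 0.26, adjusted p = 0.00964; 6 of 8).

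Protein folding and heat genes had 8 higher and 21 lower in Roma salt of 279 (10.4%, beside 6.66% of all genes). In Roma control 8 were higher and 29 lower, where 10.6% of all genes were called. SORBI_3001G129000, an ATP-binding protein folding gene, had 25.6 and 28.8 FPKM in Roma salt and 89.0 and 122 FPKM in M-81E salt (-2.18 ± 0.18, limma adjusted p = 0.00355), and SORBI_3007G197200, a peptidyl-prolyl isomerase, which helps proteins fold, had 27.4 and 24.3 FPKM in Roma salt and 79.3 and 108 FPKM in M-81E salt (-2.09 ± 0.22, adjusted p = 0.00726; 6 of 8). Ribosomal protein genes had 7 higher and 2 lower of 309 (2.91%), and 217 of the 309 lay above 0, with a median of 0.25 under salt and 0.36 in the controls (0.177 without M-81E control replicate 2). Proteasome genes had 4 higher and 4 lower of 181, translation initiation genes 1 and 0 of 65, mRNA splicing genes 3 and 3 of 184, nucleosome genes 3 and 1 of 48 and ubiquitin ligases 9 and 11 of 419. The hypoxia list had 0 higher and 2 lower of 43 (4.65%), and its most abundant gene, the pyruvate decarboxylase SORBI_3001G405500 of fermentation, had 458 and 495 FPKM in Roma salt and 257 and 282 FPKM in M-81E salt and did not pass. Of the 51 photosynthesis genes 3 were higher and 1 lower (7.84%, median -0.07).

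For the RNA methylation machinery, 21 genes carried a term of RNA methylation and 17 were tested. Of these 15 lay above 0, with a median of 0.49 under salt and 0.35 in the controls, but 1 passed and 16 did not. That gene, SORBI_3004G349700, is annotated as an rRNA and histone-glutamine methyltransferase, an activity of fibrillarin, and had 143 and 132 FPKM in Roma salt and 41.6 and 47.5 FPKM in M-81E salt (1.33 ± 0.20, limma adjusted p = 0.02; 2 of 8). Of the 17, 2 are annotated to mRNA methylation as such, and the others to methylation of other RNA or of RNA in general. SORBI_3004G285000 had 16.4 and 14.9 FPKM in Roma salt and 8.96 and 10.5 FPKM in M-81E salt (0.36 ± 0.20, adjusted p = 0.333), and SORBI_3004G033100 had 8.70 and 8.45 FPKM in Roma salt and 6.51 and 6.98 FPKM in M-81E salt (0.03 ± 0.15, adjusted p = 0.942). Neither passed in the controls or in the interaction. The annotation in the table does not name the subunits of the m6A methyltransferase, its demethylases or its readers, so these were not followed by name here. The 5 tested transposon-derived genes did not pass (0 of 5 called).

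The m6A peak list of Roma salt held 12080 peaks on 9843 genes and that of M-81E salt 10255 peaks on 8432 genes. With 1 list per strain there is no replicate check, the sources used here do not name the peak caller or say whether replicates were pooled, and no test was made between the lists. By the authors' annotation 77.1% of the Roma salt peaks and 77.9% of the M-81E salt peaks lay in a 3' UTR, 14.3% and 14.7% in another exon, and 8.60% and 7.401% in a 5' UTR. Of the Roma salt peaks 8892 overlapped an M-81E salt peak by at least 1 base on the same strand, which is 73.6% of that list (72.8 to 74.4%, 95% Clopper-Pearson interval, counting error only). Of the M-81E salt peaks 8960 overlapped a Roma salt peak, which is 87.4% of the shorter list (86.7 to 88.0%). Sharing differed by region: 77.4% of the 3' UTR peaks, 62.1% of the other exon peaks and 59.3% of the 5' UTR peaks of Roma salt were shared, and 90.6, 74.4 and 79.4% of those of M-81E salt. Peaks in a single list were weaker and shorter. Their median fold enrichment (IP over input, the authors' value) was 11 in Roma salt and 5.05 in M-81E salt, against 26.7 and 14.5 for the shared peaks of each list. They spanned a median of 179 and 149 bases, against 266 and 240 bases for each whole list.

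By gene, 7694 had a peak in both lists, 2149 in Roma salt only and 738 in M-81E salt only. The peak lists of the controls were used as a description of the same genes. Of the 2149 genes of Roma salt only, 14.5% had a peak in the Roma control list and 27.7% in the M-81E control list, and 63.9% were in neither. Of the 738 genes of M-81E salt only, 5.56% had a peak in the Roma control list and 48.0% in the M-81E control list. The control lists differ in length, with 5949 peaks in Roma control and 10219 in M-81E control, and the shares were not adjusted for it.

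Peaks paired 1 to 1 between the salt lists numbered 8147. Their median fold enrichment was 26.7 in Roma salt and 14.6 in M-81E salt, the median log2 ratio was 0.71 (0.69 to 0.74, 95% interval of the median over peaks, which are not replicates), and 78.2% of the pairs were higher in Roma salt. The ratio differed by region: 1.34 over 551 pairs in 5' UTRs, where the median fold was 26.2 in Roma salt and 9.47 in M-81E salt, 0.73 over 6593 pairs in 3' UTRs and 0.39 over 1003 pairs in other exons. With 1 list per strain, the strain and the IP that made its list cannot be told apart. Across 6276 genes the log2 ratio of fold enrichment and the log2 expression difference had a Spearman rho of 0.102, a description over genes that share their libraries. The FPKM columns behind the expression difference may themselves hold IP fragments.

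**Figure D4:**
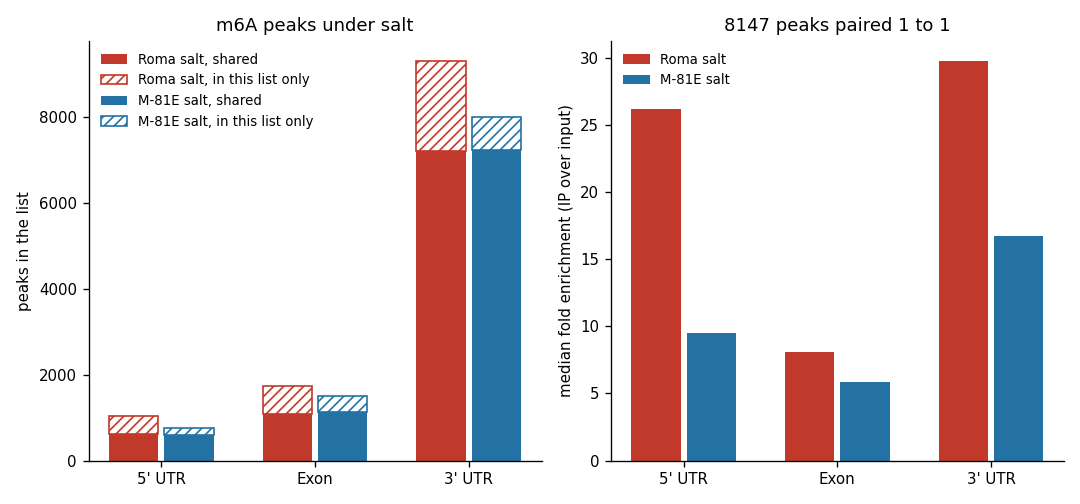
Left, number of m6A peaks by annotated region in the Roma salt list (red) and the M-81E salt list (blue), shared with the other list (filled) or in a single list (hatched). Right, median fold enrichment of the 8147 peaks paired 1 to 1, which is higher in Roma salt in each region, most in 5' UTRs (26.2 in Roma salt, 9.47 in M-81E salt).

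The strongest shared peaks lay in 5' UTRs (coordinates as in the deposited lists, whose genome build is not given). The peak of the protein kinase SORBI_3003G113800 had a fold enrichment of 4480 in Roma salt (chr3:10257926-10258284, plus strand) and 2320 in M-81E salt, with 92.2 and 92.3 FPKM in Roma salt and 62.9 and 66.8 FPKM in M-81E salt. That of the kinase SORBI_3003G037000 had 3580 in Roma salt and 2340 in M-81E salt. The telomere cap gene SORBI_3001G421500 had the stronger peak in M-81E, with 942 in Roma salt and 3450 in M-81E salt. None of these 3 genes passed the expression test under salt, and all were in both control lists.

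Among peaks in the Roma salt list only, on genes with at least 5 FPKM in all 4 salt libraries, the strongest was in the 5' UTR of SORBI_3007G160200, a ribosomal protein gene (chr7:59459375-59459554, minus strand, fold 239), with 248 and 203 FPKM in Roma salt and 105 and 68.4 FPKM in M-81E salt. SORBI_3001G121900, a phosphatidylinositol phosphate 5-kinase annotated to lateral root formation, had a 5' UTR peak of fold 208 (chr1:9557598-9557837, plus strand), with 15.4 and 14.3 FPKM in Roma salt and 6.52 and 5.24 FPKM in M-81E salt. Neither gene passed the expression test, and neither had a peak in a control list. The defence gene SORBI_3008G025500 (fold 181, 5' UTR), the nucleosome gene SORBI_3003G057366 (fold 203, exon) and the RNA-binding gene SORBI_3007G091600 (fold 157, 3' UTR) followed, and each of these was in the M-81E control list.

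Among peaks in the M-81E salt list only, the strongest was in the 5' UTR of SORBI_3009G026500, a SUMO ligase (chr9:2348284-2348463, plus strand, fold 111), which attaches the small modifier SUMO to proteins. Its transcript had 44.2 and 51.2 FPKM in Roma salt and 49.0 and 66.3 FPKM in M-81E salt (log2 difference -0.54 ± 0.23, limma adjusted p = 0.23), so the peak was listed in 1 strain while the transcript did not pass. SORBI_3005G199200, a nuclear pore gene, had a 3' UTR peak of fold 72.2 although its transcript was 20.4 and 21.96 FPKM in Roma salt and 6.51 and 7.34 FPKM in M-81E salt (1.21 ± 0.27, adjusted p = 0.0567). SORBI_3006G126000, a gene of proteasomal degradation, had a 3' UTR peak of fold 60.2 (chr6:49131573-49131838, plus strand) at 29.4 and 29.2 FPKM in Roma salt and 25.5 and 22.6 FPKM in M-81E salt. The cinnamyl-alcohol dehydrogenase SORBI_3010G071900 of the lignin group had a 3' UTR peak of fold 54.3 (chr10:5820185-5820452, plus strand), here with the lower transcript level in Roma salt given above. These 4 genes were in the M-81E control list and not in the Roma control list.

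Expression was then read by peak class. Whether the FPKM columns hold IP or input fragments is not stated, so differences between the classes cannot be told apart from m6A enrichment itself. The bound of 5 FPKM used below rests on the same columns. Of all tested genes, 3.15% were called higher in Roma salt and 3.51% lower. The 1884 tested genes with a peak in Roma salt only had a median log2 expression difference of 0.24, with 123 higher in Roma salt (6.53%) and 16 lower (0.849%). The 7396 with a peak in both lists had a median of 0.003, with 145 higher (1.96%) and 194 lower (2.62%). The 639 with a peak in M-81E salt only had a median of -0.47, with 7 higher (1.1%) and 94 lower (14.7%). The 6361 with no salt peak had -0.03, with 238 higher (3.74%) and 267 lower (4.2%). A peak can be called only where a transcript is found, and at least 5 FPKM in all 4 salt libraries left 534, 5154, 213 and 1239 genes of these classes. Their medians were 0.09, -0.03, -0.48 and -0.19, so the class of Roma salt only moved towards 0 and the class of M-81E salt only did not. The quartiles of the classes overlap in both sets of genes.

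**Figure D5:**
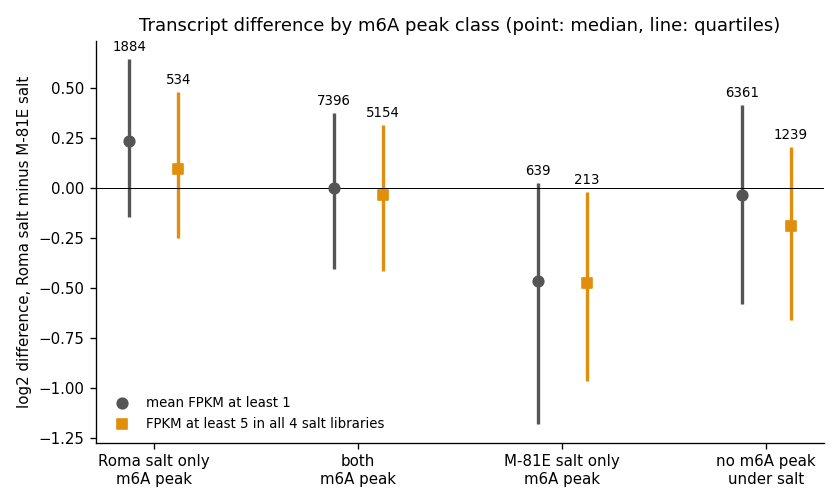
Log2 expression difference, Roma salt minus M-81E salt (median and quartiles), of genes with an m6A peak in the Roma salt list only, in both, in the M-81E salt list only or in neither, for all tested genes (circles) and for genes with at least 5 FPKM in all 4 salt libraries (squares); the numbers are genes. The median is 0.24 and 0.09 for Roma salt only, and -0.47 and -0.48 for M-81E salt only. It is not stated whether the FPKM columns hold IP or input fragments.

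Of the 6 genes named for a call under salt and a peak in 1 salt list, each had its peak in the list of the strain with the higher transcript level. They were chosen for their calls, and a peak can be listed only where a transcript is found, so this was not a test. Among all tested genes, 123 with a peak in Roma salt only were called higher in Roma salt and 16 lower. Of those with a peak in M-81E salt only, 94 were called lower and 7 higher. The malic enzyme SORBI_3003G292400 had a 3' UTR peak of fold 9.77 in Roma salt (chr3:62492986-62493195, plus strand), the glutathione transferase SORBI_3004G044900 an exon peak of fold 2.73 and the GTPase SORBI_3009G191700 an exon peak of fold 2.44. The transcription factor SORBI_3007G047400 had a 3' UTR peak of fold 9.16 in M-81E salt (chr7:4757456-4757815, plus strand) and the DNA helicase SORBI_3010G165700 one of fold 22. In these 5 genes the other strain had at most 2.29 FPKM under salt. The kinase SORBI_3005G069800 had an exon peak of fold 1.81 in M-81E salt.

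Groups differed in how many of their tested genes carried a salt peak, against 60.9% of all tested genes. A peak in either salt list was held by 90.8% of 184 mRNA splicing genes, 85.5% of 55 proton pump genes, 81.1% of 90 glycolysis and citric acid cycle genes and 80.9% of 309 ribosomal protein genes, against 35.4% of 130 peroxidases, 24.3% of the 74 genes with the ADP-binding term and 6 of 24 water channels. Over all 16280 tested genes, 7396 had a peak in both lists, 1884 in Roma salt only and 639 in M-81E salt only. The Roma salt list is the longer. In the ribosomal group of 309 genes, 210 had a peak in both lists, 34 in Roma salt only and 6 in M-81E salt only. In flavonoid and anthocyanin synthesis the split ran the other way, with 42 in both, 9 in Roma salt only and 17 in M-81E salt only. The groups also differ in transcript level, and its part in these shares was not tested.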

How the data were processed

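Sorghum root m6A IP and input libraries were made per the labels' protocols, and the authors deposited 1 table of FPKM per gene and 4 peak lists, in which the fold (ratio) of enrichment and the log10 p and FDR, handled here as a score, are the authors' own values for each peak. The submitters' processing notes list cutadapt, FastQC, HISAT2, ChIPseeker, StringTie and edgeR with no role or order, and the sources used here give no genome build, annotation, peak caller or calling threshold. The descriptions place the FPKM columns with the IP samples, while the names of the peak lists give the same short names to the samples the IP was compared with, so the origin of the fragments was left as not stated. Because only FPKM were deposited, depth per library is unknown and no count test was run.

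Genes averaging 1 FPKM or more over 8 columns were put on the log2(FPKM + 1) scale, which understates differences of low genes, and each library was centred by the median deviation of the tested genes from their means. A model with 1 mean for each of the 4 expression groups was fitted with limma 3.58.1 (R 4.3.3, eBayes with trend), and p-values were adjusted by Benjamini-Hochberg over all tested genes, two-sided, with a threshold of 0.05. The fits were tested on simulated data. Gene groups were taken by words in the annotated GO terms (41 lists, which can take in related terms) and described by counts and medians, with no test of the list. Peaks were shared when their exonic blocks overlapped by at least 1 base on the same strand. Tables and figures used Python 3.11.15 with pandas 2.3.3, numpy 2.4.6, scipy 1.17.1 and matplotlib 3.10.9. The genes named were the 12 largest rises and falls with a mean of at least 5 FPKM under salt values above 0 and an annotated activity beyond binding, the 6 highest each way listed at 0 in a strain, up to 3 called members and the most abundant member of each list, the 5 strongest peaks per class, up to 6 called genes with a peak in 1 salt list and up to 5 interaction genes each way, and the text gives a selection of them. The members and lists were chosen with earlier results of these data known, and small families were added after their values were seen. Alternatives were another pseudocount, filter, scaling, variance model and sample set, and leaving out each library.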

Additional observations from a re-analysis of the deposited data

Results flagged for a closer look

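The strain difference depended on salt in 27 genes by the interaction of strain and salt (limma, adjusted p under 0.05). Among genes with an annotated activity that averaged at least 5 FPKM under salt and had values above 0 in all 4 salt libraries, the largest was the oxalate decarboxylase SORBI_3004G148100, with an interaction of 8.84 on the log2 scale (adjusted p = 0.00739; called in 7 of the 8 fits that left out a library), followed by the oxalate decarboxylase SORBI_3007G067608 with 8.13 (adjusted p = 0.0217; 3 of 8), the malic enzyme SORBI_3003G292400 with 3.86 (adjusted p = 0.0315; 2 of 8) and the ubiquitin protein ligase SORBI_3007G056500 with 3.30 (adjusted p = 0.0238; 3 of 8). Of genes with no annotated activity, SORBI_3006G026000, at 4.93 (adjusted p = 0.0109; 5 of 8), and SORBI_3009G232700, at 3.49 (adjusted p = 0.0246; 3 of 8), met the other conditions, as did SORBI_3002G358300, given last. In the other direction stood SORBI_3006G081800, described as histone H3.v1-like, with -3.51 (adjusted p = 0.0315; 3 of 8): it had 15.2 and 13.8 FPKM in Roma salt, 12.1 and 9.05 FPKM in M-81E salt and 16.2 and 12.8 FPKM in Roma control, and 0 and 0 FPKM in M-81E control. SORBI_3004G216400, a GTPase activator, had an interaction of -2.92 (adjusted p = 0.0246; 3 of 8), with 9.50 and 10.3 FPKM in Roma salt, 6.14 and 5.62 FPKM in M-81E salt, 10.7 and 11.3 FPKM in Roma control and 0 and 0 in M-81E control. SORBI_3002G358300, with no annotated activity, had an interaction of -4.73 (limma adjusted p = 0.0315, 3 of 8). It had 33.7 and 26.1 FPKM in Roma salt and 32.9 and 19.8 FPKM in M-81E salt, where the strains overlap. Roma control had 27.3 and 32.2 FPKM and M-81E control 0 and 0.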

How the results depend on the processing

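The count of 1084 genes under salt was 1031 to 1441 with another pseudocount, no filter, no centring, quantile scaling, no variance trend or the salt libraries alone, and 619 at a mean FPKM of at least 5 (of 9702 tested). It ranged from 196 to 3012 without 1 library, the control count of 1722 from 241 to 4038, and the interaction count of 27 from 6 to 989. The interaction count was 45 with no filter and 4 at a mean FPKM of at least 5. The genes called under salt were not all the same: 973 of the 1084 were kept with another pseudocount, 840 with no filter and 902 with no centring. With quantile scaling 929 were kept, with no variance trend 1049, with the salt libraries alone 804, and at a mean FPKM of at least 5 589. With no filter 867 genes were higher in Roma salt and 574 lower, which is 60.2% higher against 47.3%. With the replicate number as a block, 722 genes passed under salt (705 shared with the 1084) and 10 for the interaction; same-numbered samples did not deviate together (correlations of -0.0376 to 0.0384), so the numbers were not taken as pairs. The 12 largest rises and 12 largest falls among genes with an annotated activity kept their direction in each of these alternatives that tested them, and 17 to 24 kept their call. Shared peaks were 66.0% of the Roma salt list and 77.77% of the M-81E salt list with an overlap of at least 50% of both peaks, and 78.2 and 91.2% by gene. In alternatives chosen after seeing the data, the strongest 50% of a list was set against the whole other list, and shared were 95.5% of these Roma salt peaks and 96.7% of these M-81E salt peaks. The class medians were 0.52, 0.28, -0.18 and 0.25 without centring (Roma salt only, both, M-81E salt only, neither). With at least 5 FPKM in all 4 salt libraries 3 of them were 0.0943, -0.0324 and -0.19 (Roma salt only, both, neither). Without 1 library the median for Roma salt only was 0.23 to 0.26. The cause of these shifts was not tested, and 2 libraries a group and unknown depth limit the precision.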

Other observations

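The share of called genes was counted by chromosome for genes whose position could be read from the peak lists. Of 10325 tested genes with a position, 5.96% were called under salt. The share was 9.24% on chromosome 5 (40 of 433 genes) and 9.09% on chromosome 8 (44 of 484), and 4.98% on chromosome 1 (100 of 2007). The remaining chromosomes lay between 5.38 and 6.57%. Genes with a position are those with a peak in at least 1 list, and no test was made.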
